A study of Mus musculus with 15 samples.

Results

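The libraries described here came from C2, 1 of the clones of MLL-ENL transformed mouse fetal liver cells in which the loss of the transcription factors Cebpa and Cebpb was studied by RNA sequencing. They were chosen by their labels as the 3 WT and 3 dKO libraries of C2, 6 of the 15 libraries analysed, and 12673 of the 53379 genes in the table held enough reads to be tested. MLL-ENL, a fusion of a histone methyltransferase with a partner of the transcription elongation machinery, was introduced by retrovirus, and the cells were grown with IL-3. The WT cells carried both genes in floxed form (Cebpa fl/fl Cebpb fl/fl) and were labelled wild-type. The dKO cells had lost both genes (Cebpa KO and Cebpb KO) after repeated treatment with TAT-Cre, a recombinase that enters cells as a protein, followed by recloning of the survivors in semi-solid medium, and they carried exogenous GFP, which the labels do not give for the WT cells. Clones with partial deletions had been pooled and expanded before the last Cre treatment. C2 stood for 1 clone from 1 mouse, and its 3 RNA samples per genotype were isolated at different time points. The p-values therefore measure only the spread between RNA isolates, pooled over all 15 libraries, and not that between clones or mice. The genotype cannot be told apart from the parental clone, the Cre treatment, the recloning or the GFP.

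The C/EBP proteins are leucine zipper factors that bind DNA as dimers. Cebpa is known as the factor that carries early progenitors into the granulocyte and monocyte lineages, and Cebpb as the member that takes over in emergency granulopoiesis and in macrophages. Granulocyte maturation is commonly followed by its granule proteins, which are made in sequence: the enzymes of the primary granules in promyelocytes, then the proteins of the secondary and tertiary granules. MLL fusions hold progenitors in a proliferating state through genes such as the HOXA cluster and Meis1.

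The targeted genes were checked first, as normalized reads, that is read counts divided by the size factor of each library. Cebpa (ENSMUSG00000034957, mm10 chr7:35119293-35121928, plus strand) was read 1653, 2267 and 1969 in WT and 0, 0 and 0 in dKO. No read of it was found in any dKO library, so it was at least 610-fold lower than in WT, a bound taken at 3 reads per library. Cebpb (ENSMUSG00000056501, chr2:167688915-167690418, plus strand) was read 1353, 1634 and 1413 in WT and 0, 0 and 0 in dKO, again without a read in dKO, and was at least 456-fold lower. The targeted genes thus went with the genotype labels in all 6 libraries. Each library had between 11484790 and 13263321 reads on genes. The first principal component of the C2 libraries carried 79.8% of the variance and separated WT from dKO.

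Of the 12673 genes tested, 2211 (17.4%) were called higher in dKO and 2549 (20.1%) lower, at an adjusted p under 0.05 in limma, so that 4760 (37.6%) were called in all and 7913 were not. In these bulk samples, fewer cells of one type and less RNA per cell cannot be told apart. The median log2 fold change (dKO over WT, fitted on log2 of normalized reads + 1) of all tested genes was -0.03. A change of at least 1 on the log2 scale was reached by 526 of the genes called higher and 915 of those called lower. The 3 dKO libraries all lay above the 3 WT libraries for 2156 of the genes called higher, and all below them for 2473 of those called lower. Most genes named below were taken only among genes without overlap, so that its absence describes them and is no further result. These shares are the background against which the gene groups below are read, with each group given by the number of its tested members that were called and by its median. A gene near 0 in one group could be tested only through the libraries in which it was read, so that the filter on low reads partly sets the counts and medians of lists that hold such genes, and these are given as descriptions.

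**Figure D1:**
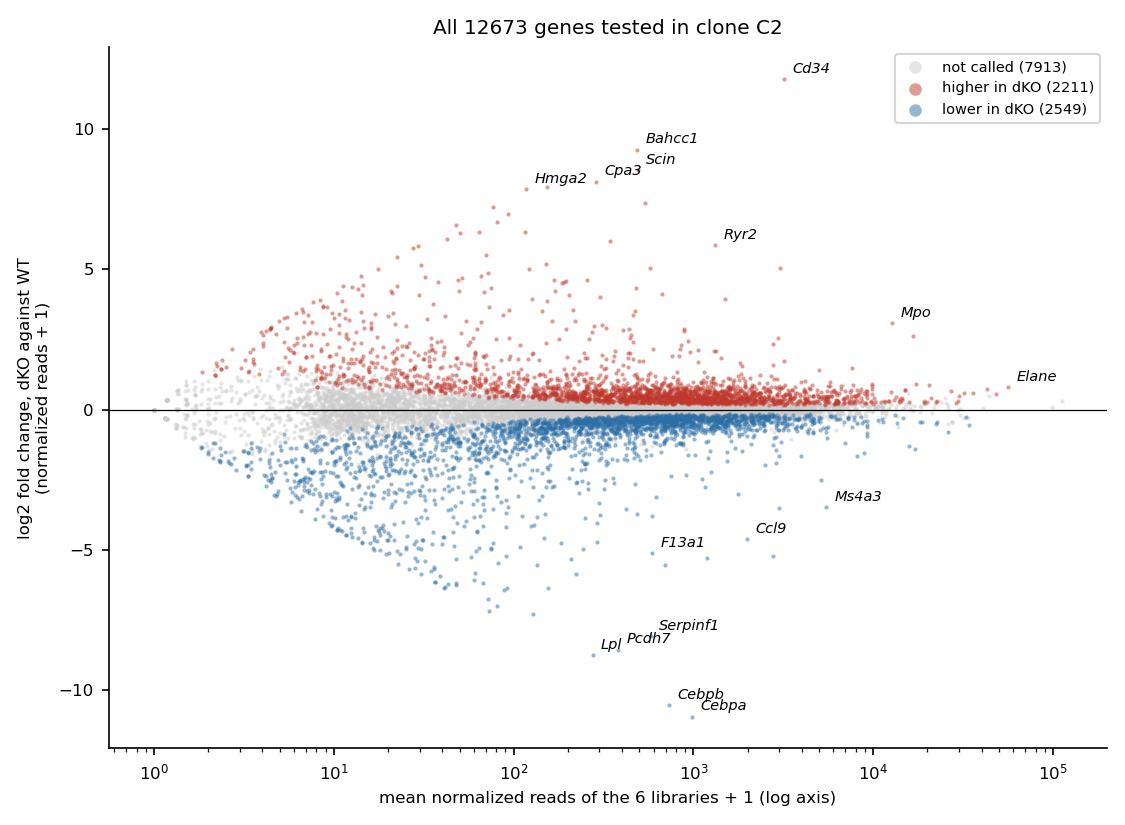
Log2 fold change of dKO over WT in C2 for each of the 12673 genes tested (vertical axis) against the mean normalized reads + 1 of the 6 libraries (horizontal log axis), with the 2211 genes called higher in red, the 2549 called lower in blue and the 7913 not called in grey. Cd34 stands highest and Cebpa and Cebpb lowest, and the values of genes at the floor of 3 reads, such as these, are fitted values and no bounds.

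**Figure D2:**
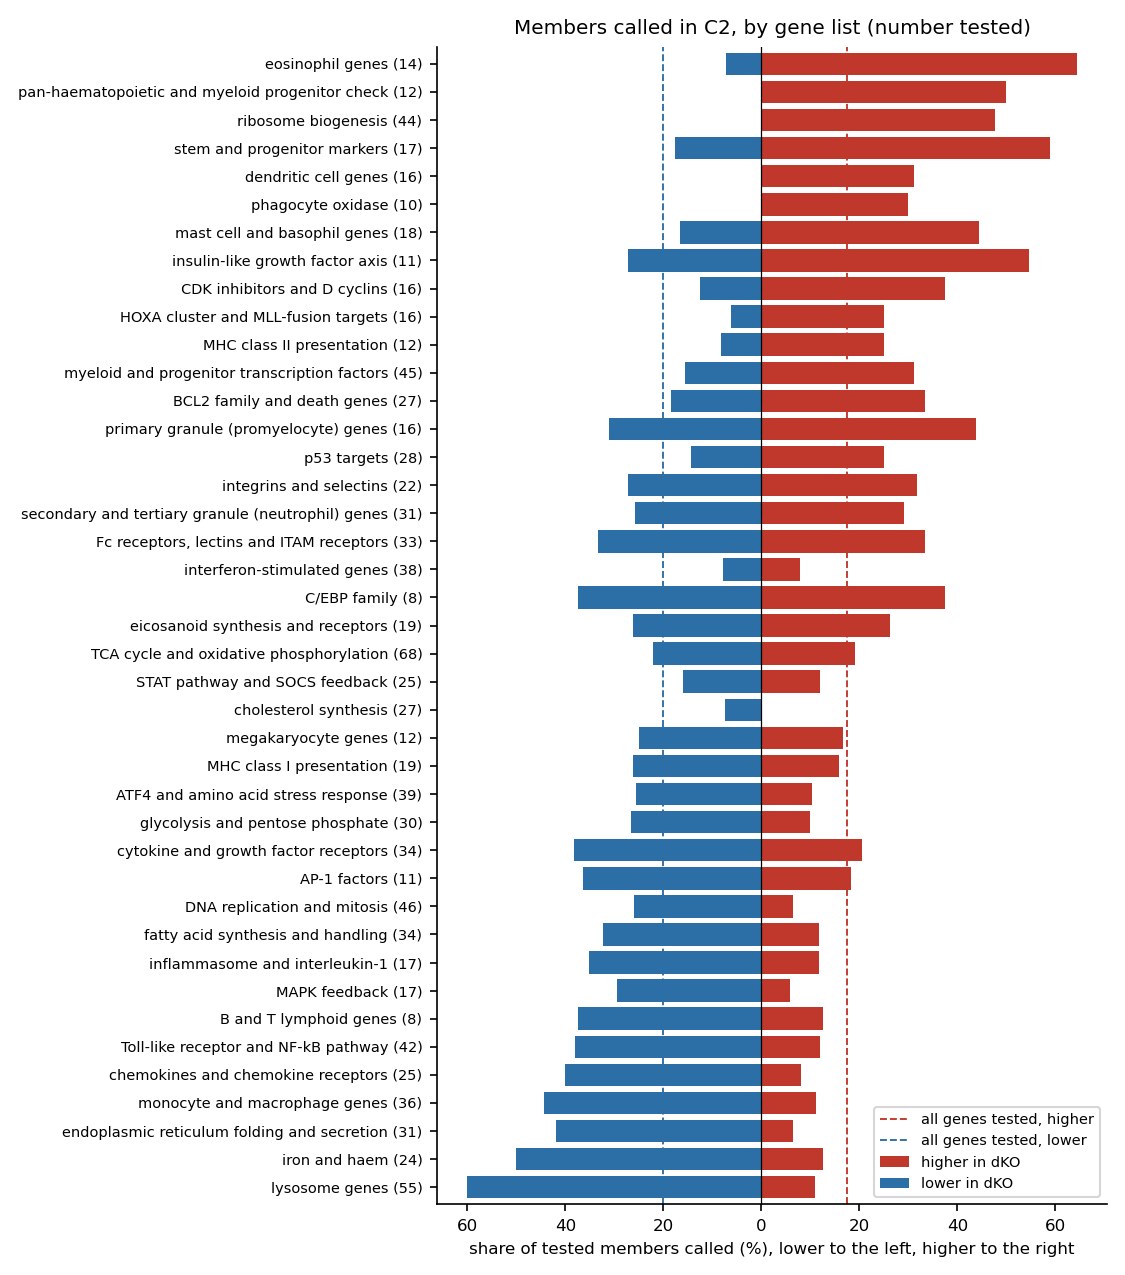
Share of the tested members of each gene list called higher (red, to the right) or lower (blue, to the left) in dKO than in WT of C2, in percent, with the number tested in brackets and dashed lines at the share of all tested genes (17.4% higher and 20.1% lower). Lists with fewer than 8 tested members are left out. The bars for eosinophil, stem and progenitor and ribosome biogenesis genes reach far to the right, and that for lysosome genes reaches 60.0% to the left.

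Among the other members of the C/EBP family, the remaining granulocytic factor rose. Cebpe, which acts late in granulocyte maturation, was read 497, 517 and 501 in WT and 2222, 2120 and 2155 in dKO. All dKO libraries were above all WT libraries, by 4.29-fold (log2 fold change 2.10 ± 0.10, adjusted p = 3.59e-10, where ± gives the standard error). Cebpg, a partner without an activation domain of its own, was read 915, 873 and 789 in WT and 1811, 1399.7 and 1914 in dKO. It did not overlap between genotypes either (log2 fold change 0.98 ± 0.16, adjusted p = 2.16e-04). Cebpz, listed with the family by its name only and not as a leucine zipper factor, rose by less. It was read 1944 ± 189 in WT and 3191 ± 78.7 in dKO (mean ± SD, n = 3, log2 fold change 0.72 ± 0.07, adjusted p = 1.65e-06 by limma). Cebpd (764 ± 43.9 in WT and 725 ± 79.8 in dKO, adjusted p = 0.681) and Ddit3 (157 ± 33.4 in WT and 162 ± 27.4 in dKO, adjusted p = 0.883) did not pass the test. Of the tribbles proteins, which promote the breakdown of Cebpa protein, Trib2 was at or near 0 and Trib1 was read 74.7, 159 and 153 in WT and 43.9, 20.4 and 50.4 in dKO, with no overlap. Its fall (log2 fold change -1.75 ± 0.64, adjusted p = 0.0431) was no longer called with a pseudocount of 0.1, with no filter on low reads, or without WT library 2 or 3 or any 1 of the dKO libraries.

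The genes with the largest rises in dKO came mainly from hardly any reads in WT. Cd34, a surface glycoprotein used to define stem and progenitor cells, was read 0, 2.1 and 0.92 in WT and 5935, 6184 and 6975 in dKO. It was thus near 0 in every WT library and among the abundant transcripts in every dKO library, a ratio of 6469.8-fold with a 95% counting interval of 2210.2 to 31328. Bahcc1, which encodes a chromatin protein, was read 2.99, 0 and 0 in WT and 881, 1072 and 966 in dKO. The WT libraries again held next to none, a ratio of 989-fold with a 95% counting interval of 339 to 4812. Cpa3, the carboxypeptidase of mast cell granules, was read 1, 1.05 and 0.92 in WT and 667, 385 and 652 in dKO. The ratio was 578-fold with a 95% counting interval of 195 to 2777, with no overlap. Scin, an actin-severing protein, was read 2.99, 0 and 3.66 in WT and 1000.1, 1003 and 919 in dKO. Here too WT held few reads, with none in library 2, and the ratio of the means was 439-fold (log2 fold change 8.52 ± 0.50, adjusted p = 3.68e-09). It carries no counting interval, since WT library 3 was above the floor of 3 reads. Slc22a3, an organic cation transporter, and Kcnn4, a calcium-activated potassium channel, rose by 7.35 ± 0.30 and 5.99 ± 0.63 on the log2 scale. The sodium-calcium exchanger gene Slc8a1 was read 1, 0 and 0.92 in WT and 154, 171 and 149 in dKO, without overlap. Ryr2, the calcium release channel best known from heart muscle, was read 37.8, 48.2 and 45.8 in WT and 3162, 2416 and 2213 in dKO and was 59.1-fold higher (log2 fold change 5.84 ± 0.24, adjusted p = 5.06e-11).

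Apart from the targeted genes, the deepest fall was that of Lpl, the lipase that frees fatty acids from circulating triglycerides. It was read 493, 458 and 691 in WT and 1.05, 0 and 0 in dKO. The dKO libraries held 1 read among them, and WT was higher by 1596-fold with a 95% counting interval of 289 to 63737. Serpinf1, a secreted member of the serpin family, was read 1305, 1115 and 1037 in WT and 3.14, 0.97 and 8.58 in dKO. It was present in all WT libraries and close to absent in dKO (log2 fold change -8.07 ± 0.39, adjusted p = 3.45e-10). As3mt, the arsenic methyltransferase, was read 134, 148 and 147 in WT and 0, 0 and 0 in dKO and was at least 44.4-fold lower. Il1rl2, the receptor for the IL-36 cytokines, was read 218, 160.4 and 160.3 in WT and 0, 0.97 and 4.29 in dKO. No dKO library reached the lowest WT library (log2 fold change -6.35 ± 0.39, adjusted p = 5.78e-09). Lamc1, a laminin chain, fell by 6.33 ± 0.48 on the log2 scale with values of 243, 363 and 306 in WT and 5.23, 0.97 and 3.22 in dKO, and Sh3pxd2b, a podosome scaffold, was read 352, 535 and 427 in WT and 6.28, 4.86 and 8.58 in dKO (log2 fold change -5.86 ± 0.29, adjusted p = 5.54e-10).

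Promoter windows of these genes were read from RefSeq (GRCm38.p6), which held 25 of the 30 genes with the largest changes, 13 higher and 12 lower in dKO. The words searched, on both strands, were TTGCNNAA, a core of the C/EBP site, TTGCGCAA, the palindrome contained in it, and AGATAA, a core of the GATA site. The 5 windows shown were chosen after the values were seen, since they are those of these genes that hold TTGCNNAA or AGATAA before the start. Each is the 250 bases before the gene's start on the gene's strand, 5′ to 3′, with the word in capitals. Cpa3 (chr3:20242182-20242431, minus strand) holds AGATAA at -46 to -41 from the start, Slc8a1 (chr17:81738388-81738637, minus strand) AGATAA at -68 to -63, Serpinf1 (chr11:75422624-75422873, minus strand) AGATAA at -137 to -132, Il1rl2 (chr1:40324339-40324588, plus strand) TTGCTTAA at -124 to -117, and Agpat3 (chr10:78351701-78351950, minus strand) TTGCTCAA at -149 to -142. AGATAA is thus found before 2 of the genes that rose and 1 that fell.
Cpa3: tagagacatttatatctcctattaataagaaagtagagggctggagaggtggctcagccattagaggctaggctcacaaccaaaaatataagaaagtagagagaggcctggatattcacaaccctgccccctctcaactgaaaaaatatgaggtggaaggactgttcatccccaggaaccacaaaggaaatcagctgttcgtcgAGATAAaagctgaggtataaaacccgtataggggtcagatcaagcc
Slc8a1: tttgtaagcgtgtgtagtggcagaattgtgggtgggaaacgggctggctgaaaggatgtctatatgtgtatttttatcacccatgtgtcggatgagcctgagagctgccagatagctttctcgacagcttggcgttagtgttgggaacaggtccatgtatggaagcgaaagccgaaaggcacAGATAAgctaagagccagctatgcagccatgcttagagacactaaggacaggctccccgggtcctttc
Serpinf1: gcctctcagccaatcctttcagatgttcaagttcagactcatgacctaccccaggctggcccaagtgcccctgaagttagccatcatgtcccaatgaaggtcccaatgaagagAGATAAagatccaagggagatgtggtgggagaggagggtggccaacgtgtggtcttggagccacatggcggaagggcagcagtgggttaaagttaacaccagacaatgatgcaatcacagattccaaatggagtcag
Il1rl2: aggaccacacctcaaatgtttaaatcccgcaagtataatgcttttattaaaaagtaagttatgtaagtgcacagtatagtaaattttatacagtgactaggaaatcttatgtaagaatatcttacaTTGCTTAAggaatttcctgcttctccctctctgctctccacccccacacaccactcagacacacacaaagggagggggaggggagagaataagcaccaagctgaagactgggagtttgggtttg
Agpat3: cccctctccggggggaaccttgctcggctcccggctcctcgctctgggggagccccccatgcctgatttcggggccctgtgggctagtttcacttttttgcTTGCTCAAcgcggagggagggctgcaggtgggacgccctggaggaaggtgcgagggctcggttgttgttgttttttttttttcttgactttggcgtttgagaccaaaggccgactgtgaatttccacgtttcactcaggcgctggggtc
Over the 9415 tested genes with a window, taken here with the 50 bases after the start, TTGCNNAA was in 10.3%. It was in 9.92% of the windows of genes called higher and 12.5% of those called lower, and in 11.8% and 16.4% of those that also changed by at least 1 on the log2 scale (44 of 373 and 113 of 688). AGATAA was in 7.7% of all tested windows, in 12.6% (47 of 373) of those of genes higher by at least 1 and in 8.87% (61 of 688) of those lower by at least 1. TTGCGCAA was in 0.361% of tested windows and in 0 of both sets with a change of at least 1. A match describes the letters of a window and not a bound site, and these shares were not tested.

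Stem and progenitor markers were more often higher in dKO. Of the 26 genes listed, 17 were tested, 10 were called higher and 3 lower, with a median log2 fold change of 2.16 against -0.03 for all genes. Of these 17, 4 reached 10 reads in C2 only in dKO and 1 held under 10 in every C2 library, so that the filter partly sets this count and median. Flt3, the FLT3 ligand receptor of early lymphoid and myeloid progenitors, was read 0, 0 and 0.92 in WT and 352, 261 and 299 in dKO. WT held 1 read in all, and the ratio was 926-fold with a 95% counting interval of 165 to 36502. Kit, the receptor for stem cell factor, was read 278, 310.4 and 332 in WT and 1236, 1576 and 1317 in dKO. It was already well read in WT and rose by 4.49-fold (log2 fold change 2.16 ± 0.12, adjusted p = 1.13e-09). Angpt1, the angiopoietin made by stem cells and their niche, was read 40.8, 14.7 and 58.6 in WT and 669.5, 414 and 605 in dKO (log2 fold change 4.02 ± 0.34, adjusted p = 2.22e-07), with all dKO libraries above WT. The markers that fell were Cd93, read 3892, 4247 and 3764 in WT and 1067, 822 and 1131 in dKO (log2 fold change -1.99 ± 0.14, adjusted p = 2.07e-08), together with Muc13 (-1.73 ± 0.26) and Egfl7 (-1.17 ± 0.20). These 3 are known from progenitor and endothelial cells, and none of them overlapped between genotypes. Ly6a (5.89 ± 1.92 in WT and 6.78 ± 2.79 in dKO), the Sca-1 antigen, and Msi2 (738 ± 29.5 in WT and 605 ± 107 in dKO) did not pass the test (adjusted p = 0.905 and 0.104), and the 9 listed genes that were not tested, among them Hlf, Mecom, Procr and Slamf1, were at or near 0 in both genotypes.

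**Figure D3:**
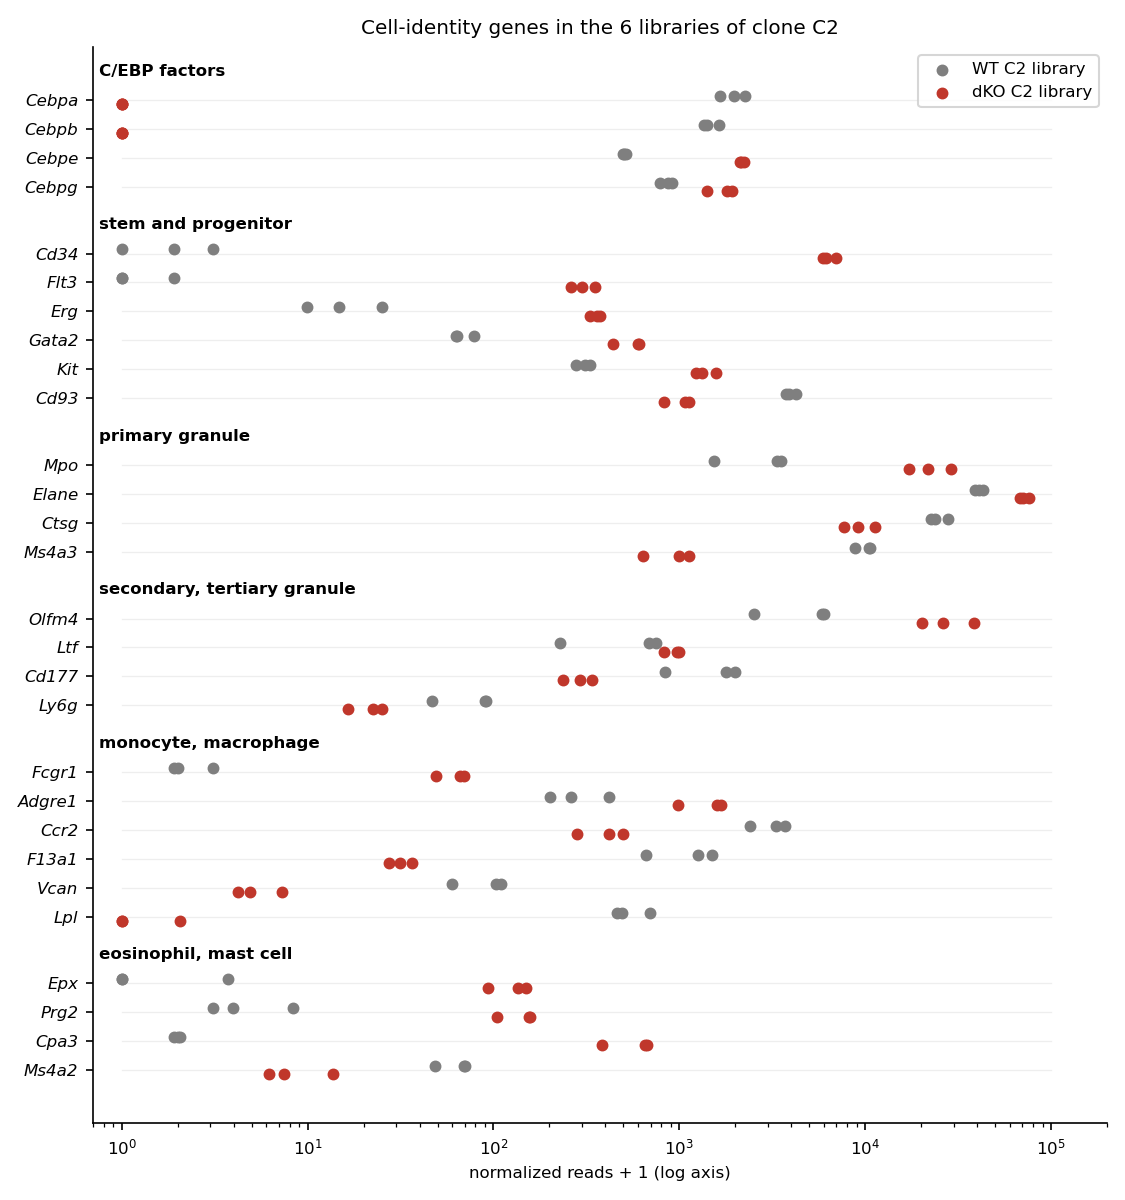
Normalized reads + 1 (horizontal log axis) of cell-identity genes in each of the 6 C2 libraries, with 1 grey point per WT library and 1 red point per dKO library, grouped by C/EBP factors, stem and progenitor, primary granule, secondary and tertiary granule, monocyte and macrophage, and eosinophil and mast cell genes. The genes shown were chosen with their values known, largely by a rule that takes only genes without overlap. That the red points lie all to the right or all to the left of the grey points follows from this choice. Cd34 moved the farthest to the right and Cebpa the farthest to the left.

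Several transcription factors of progenitors rose with them. Among 45 tested myeloid and progenitor factors, 14 were called higher and 7 lower, with a median of 0.01 (0.04 with members at the floor set to their bound) that became -0.07 with a pseudocount of 0.1 and -0.03 when only the C2 groups were fitted. Erg, an ETS factor of stem cells and megakaryocytes, was read 8.96, 24.1 and 13.7 in WT and 376, 331 and 358 in dKO. It rose by 22.8-fold, with no overlap (log2 fold change 4.52 ± 0.23, adjusted p = 8.60e-10). Gata2, which acts in stem cells and in the mast cell lineage, was read 61.7, 62.9 and 77.9 in WT and 597, 439 and 609 in dKO (log2 fold change 3.00 ± 0.24, adjusted p = 1.44e-07). Sox4, an HMG box factor held down by Cebpa in normal progenitors, was read 67.7, 49.3 and 42.1 in WT and 303, 263 and 338 in dKO. The dKO level was 5.68-fold that of WT, and no libraries overlapped (log2 fold change 2.51 ± 0.17, adjusted p = 1.77e-08). Ikzf2, the Helios factor, was read 0, 0 and 0 in WT and 167, 118 and 167 in dKO, at least 47.9-fold higher. Gfi1b, the erythroid and megakaryocyte relative of Gfi1, and Mycn were likewise without a read in WT and were at least 4.7-fold and at least 7.4-fold higher. Runx1 (0.88 ± 0.12), Myb (0.70 ± 0.10), Myc (0.53 ± 0.12) and Ikzf1 (0.38 ± 0.10) rose by less than 1 on the log2 scale. The factors that fell included Egr1, an immediate early gene tied to the monocyte lineage, read 187, 489.6 and 476 in WT and 43.9, 67.1 and 62.2 in dKO (log2 fold change -2.61 ± 0.48, adjusted p = 4.94e-04), and Tfec, a MITF relative of macrophages, read 4938, 4426 and 4205 in WT and 1322, 1647 and 1348 in dKO (log2 fold change -1.66 ± 0.10, adjusted p = 3.68e-09). Neither overlapped between genotypes. Spi1, which encodes PU.1, was read 2780.4, 2988 and 2832 in WT and 3046, 3409.9 and 3038 in dKO, and the genotypes did not differ by the test (adjusted p = 0.192). Irf8 (89 ± 14.4 in WT and 68.8 ± 7.46 in dKO, adjusted p = 0.124) did not pass the test either, and Gfi1, a repressor of the monocyte fate, passed it only without dKO library 2 (adjusted p = 0.027) or with quantile normalization (adjusted p = 0.0253), against 0.09 with all libraries.

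The HOXA cluster and its partners are genes through which MLL fusions are known to act. Of 16 tested members of the HOXA cluster and MLL-fusion targets, 4 (25%) were called higher and 1 (6.25%) lower, against 17.4% and 20.1% of all genes, with 2 lower without dKO library 1 (median -0.06). Hoxa9 was read 4022, 3567 and 3586 in WT and 3295, 2589.5 and 2762 in dKO and did not pass the test (adjusted p = 0.109, or 0.0117 with only the C2 groups fitted), nor did Meis1, its usual partner, at 952, 982 and 955 in WT and 991, 922 and 916 in dKO (adjusted p = 0.78). Pbx3, another partner of HOX proteins, was read 90.6, 151 and 132 in WT and 792, 784 and 755 in dKO. It rose by 6.24-fold without overlap (log2 fold change 2.66 ± 0.15, adjusted p = 2.67e-09). Jmjd1c (0.77 ± 0.10) and Hoxa7 (0.56 ± 0.13) rose, and Hoxa10 was read 1671, 1600 and 1556 in WT and 1063, 907 and 973 in dKO and fell (log2 fold change -0.72 ± 0.11, adjusted p = 1.31e-04).

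The primary granule genes split. Of 16 tested, 7 were called higher and 5 lower, with a median of 0.29. Mpo, which encodes myeloperoxidase, was read 3513, 3347 and 1533 in WT and 17302, 28890 and 21867 in dKO. Every dKO library held several times the reads of the best WT library, and the means differed by 8.11-fold (log2 fold change 3.08 ± 0.25, adjusted p = 1.45e-07). Prss57, a serine protease of the same granules, was read 427, 341 and 410.4 in WT and 1429, 1889.6 and 1849 in dKO (log2 fold change 2.13 ± 0.13, adjusted p = 4.49e-09). Elane, neutrophil elastase, was read 39099.6, 40922 and 42894 in WT and 67647, 76021 and 70747 in dKO. It was among the abundant transcripts of both genotypes and rose by 1.74-fold (log2 fold change 0.80 ± 0.11, adjusted p = 4.05e-05), a call that was lost with quantile normalization (log2 fold change 0.21, adjusted p = 0.145). Ctsg, cathepsin G, was read 27724, 22652 and 23660.2 in WT and 7660, 11266 and 9141 in dKO. It went the other way, 2.64-fold lower in dKO and again without overlap (log2 fold change -1.41 ± 0.16, adjusted p = 4.08e-06). Ms4a3, a membrane protein used as a mark of granulocyte-monocyte progenitors, was read 10665, 8788 and 10469.6 in WT and 1000.1, 1129.5 and 636 in dKO. This was the steepest fall of the group (log2 fold change -3.47 ± 0.16, adjusted p = 2.79e-10). Mgst1 fell by 1.74 ± 0.18 and Serpinb1a, the inhibitor of elastase, fell by 0.94 ± 0.11.

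Secondary and tertiary granule genes were divided in the same way, with 9 of 31 tested called higher, 8 lower and a median of 0.07. Olfm4, a matrix glycoprotein of a subset of neutrophils, was read 2522, 5993 and 5823 in WT and 38441, 20121 and 26250.1 in dKO. The dKO libraries lay above WT by 5.92-fold (log2 fold change 2.62 ± 0.27, adjusted p = 1.84e-06), although WT library 1 held fewer reads than the other WT libraries. Chil3, a chitinase-like protein, was read 450.1, 884 and 1681 in WT and 3367, 5579.5 and 4555 in dKO (log2 fold change 2.33 ± 0.36, adjusted p = 1.11e-04). Mmp9, the gelatinase, was read 66.7, 181 and 301 in WT and 1182, 392 and 548 in dKO, without overlap (log2 fold change 2.03 ± 0.47, adjusted p = 0.00312), and the collagenase Mmp8 rose by 2.04 ± 0.43. Ltb4r1, the leukotriene B4 receptor that guides neutrophils, was read 184, 252 and 179 in WT and 756, 725 and 649 in dKO. Its libraries were tight within each genotype and differed by 3.47-fold (log2 fold change 1.80 ± 0.14, adjusted p = 5.91e-08). Cd177, a surface antigen of neutrophils, was read 836, 1984 and 1793 in WT and 340, 289.7 and 236 in dKO. It fell by 5.33-fold, with every dKO library below WT (log2 fold change -2.33 ± 0.24, adjusted p = 2.10e-06). Retnlg, a resistin-like protein of mature neutrophils, was read 17.9, 61.9 and 56.8 in WT and 6.28, 2.92 and 4.29 in dKO (log2 fold change -2.94 ± 0.49, adjusted p = 1.84e-04), and Ly6g, the antigen that marks neutrophils, 45.8, 89.1 and 90.7 in WT and 24.1, 15.6 and 21.4 in dKO (log2 fold change -1.79 ± 0.37, adjusted p = 0.00123). Both were lower in all dKO libraries. Csf3r, the receptor for G-CSF, fell by 0.75 ± 0.13. The alarmins S100a8 (32529 ± 7815 in WT and 28248 ± 7182 in dKO, adjusted p = 0.47) and S100a9 (30142 ± 9162 in WT and 29163 ± 7418 in dKO, adjusted p = 0.938), the granule protein Ngp (adjusted p = 0.859) and Camp (adjusted p = 0.579) did not pass the test.

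Monocyte and macrophage genes were more often lower. Of 36 tested, 16 (44.4%) were called lower and 4 higher, with a median of -0.63 (-0.54 with members at the floor set to their bound), and 7 of the 36 held under 10 reads in every C2 library. F13a1, the coagulation factor subunit made by monocytes, was read 663, 1498 and 1262 in WT and 30.3, 26.2 and 35.4 in dKO. It was lower in every dKO library, by 37.2-fold (log2 fold change -5.10 ± 0.27, adjusted p = 1.01e-09). Ccr2, the receptor for CCL2, was read 2392, 3308 and 3719.5 in WT and 494, 281 and 417 in dKO. The fall was 7.9-fold (log2 fold change -2.99 ± 0.32, adjusted p = 2.58e-06). Pld4, a phospholipase family member of phagocytes, was read 1107, 1088 and 1082 in WT and 69, 89.4 and 78.3 in dKO, with nearly equal libraries within each genotype (log2 fold change -3.78 ± 0.22, adjusted p = 2.60e-09). Vcan, the proteoglycan versican, was read 58.8, 103 and 109 in WT and 6.28, 3.89 and 3.22 in dKO (log2 fold change -4.05 ± 0.43, adjusted p = 2.78e-06). Gpnmb, a glycoprotein of macrophages and melanocytes, was read 77.7, 125 and 512 in WT and 10.5, 6.8 and 9.65 in dKO. Its WT libraries were far apart, yet none reached down to dKO (log2 fold change -4.13 ± 0.50, adjusted p = 9.56e-06). Spp1, osteopontin, was read 3482, 14239.5 and 8670.3 in WT and 1559, 916 and 1651 in dKO (log2 fold change -2.50 ± 0.52, adjusted p = 0.0014), and the endotoxin co-receptor Cd14 254, 581 and 384 in WT and 120.3, 56.4 and 102 in dKO (log2 fold change -2.11 ± 0.40, adjusted p = 6.41e-04). Mpeg1, perforin-2, fell by 1.78 ± 0.23, and the nuclear receptor Pparg fell by 1.53 ± 0.20.

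The rises in that group were few. Fcgr1, the high-affinity receptor for IgG, was read 1, 2.1 and 0.92 in WT and 48.1, 65.1 and 68.7 in dKO. The ratio was 46.2-fold with a 95% counting interval of 17.8 to 172. Adgre1, the F4/80 antigen of macrophages and eosinophils, was read 200.2, 260 and 418 in WT and 1676, 988 and 1598 in dKO, without overlap (log2 fold change 2.30 ± 0.23, adjusted p = 1.14e-06). Apoe was read 86.6, 58.7 and 57.7 in WT and 143, 147 and 144 in dKO (log2 fold change 1.11 ± 0.24, adjusted p = 0.00172). Csf1r, the M-CSF receptor, was read 35.9, 36.7 and 65 in WT and 67, 46.7 and 68.7 in dKO and did not pass the test with all libraries (adjusted p = 0.146), but did without WT library 3 (log2 fold change 0.71, adjusted p = 0.0154) and with quantile normalization (adjusted p = 0.0347). Ly6c2 (14626 ± 1684 in WT and 12374 ± 829 in dKO, adjusted p = 0.153), Itgam (904 ± 199 in WT and 942 ± 209.9 in dKO, adjusted p = 0.844) and Lyz2 (2195 ± 964 in WT and 1988 ± 352 in dKO, adjusted p = 0.9) did not pass the test. C1qa, C1qb and C1qc, which mark tissue macrophages, had no read in either genotype.

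Several genes of other myeloid lineages were higher in dKO. Of 14 tested eosinophil genes, 9 (64.3%) were called higher and 1 lower (2 without WT library 1 or dKO library 1, 0 without WT library 3), with a median of 2.13 (1.63 with members at the floor set to their bound). Of these 14, 3 reached 10 reads in C2 only in dKO and 6 held under 10 in every C2 library and passed the filter through C1 libraries, so that the filter partly sets this count and median. Epx, eosinophil peroxidase, was read 0, 0 and 2.75 in WT and 92.1, 149 and 135 in dKO. WT held next to none, and the ratio was 127-fold with a 95% counting interval of 43.4 to 623. Prg2, the major basic protein, was read 2.99, 2.1 and 7.33 in WT and 104, 156 and 153 in dKO (log2 fold change 4.86 ± 0.38, adjusted p = 8.83e-08). Siglecf, a sialic acid binding lectin of eosinophils, was read 17.9, 11.5 and 8.25 in WT and 59.6, 46.7 and 61.1 in dKO, without overlap (log2 fold change 2.12 ± 0.20, adjusted p = 9.08e-07). Ccr3 and Ear10 had no read in either genotype, and Il5ra, the IL-5 receptor chain, was read 0, 0 and 0 in WT and 3.14, 2.92 and 4.29 in dKO, at least 1.1-fold higher.

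Of 18 mast cell and basophil genes tested, from 34 listed, 8 were called higher and 3 lower, with a median of 0.39. Besides Cpa3, Gata2 and Kit, the genes called higher included Itga2b, the CD41 integrin shared with megakaryocytes, read 5.98, 24.1 and 17.4 in WT and 187, 109.8 and 174 in dKO (log2 fold change 3.38 ± 0.45, adjusted p = 2.34e-05), and Hdc, the enzyme that makes histamine, read 4.98, 19.9 and 10.1 in WT and 45, 85.5 and 52.6 in dKO (log2 fold change 2.42 ± 0.33, adjusted p = 3.66e-05). Both were higher in all dKO libraries. Ms4a2, the beta chain of the IgE receptor, was read 69.7, 68.2 and 47.6 in WT and 5.23, 12.6 and 6.44 in dKO. It was lower in all dKO libraries (log2 fold change -2.85 ± 0.33, adjusted p = 5.88e-06). The mast cell proteases Mcpt1, Mcpt2, Mcpt4, Tpsab1 and Tpsb2 and the IgE receptor chain Fcer1a had no read in any C2 library.

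Of 16 tested dendritic cell genes, 5 were called higher and 0 lower by limma (0 lower also at an unadjusted p under 0.05, in edgeR and in DESeq2, but 1 without WT library 2), with a median of 0.01 (0.17 with members at the floor set to their bound), while 5 of the 16 held under 10 reads in every C2 library and 3 reached 10 reads only in dKO. They included Flt3, Cd74, read 0, 2.1 and 1.83 in WT and 14.7, 12.6 and 10.7 in dKO, and Clec10a, read 6.97, 15.7 and 25.6 in WT and 60.7, 36.9 and 63.3 in dKO (log2 fold change 1.80 ± 0.34, adjusted p = 6.72e-04). Xcr1, Clec9a, Siglech and Cd209a had no read. Of 12 tested megakaryocyte genes, 2 (16.7%) were called higher and 3 (25%) lower, against 17.4% and 20.1% of all genes. Their median was -0.38 (-0.56 with members at the floor set to their bound), with a fall of Cd9 (-2.75 ± 0.35) and a rise of Itgb3 (0.82 ± 0.13). Only 4 of 28 erythroid genes were tested, of which Gata1 and Car2 were called higher. Gata1 was read 0, 0 and 0 in WT and 6.28, 4.86 and 9.65 in dKO, at least 2.2-fold higher, while the globin genes were not above the filter in C2. Of 34 lymphoid genes 8 were tested, with 1 called higher and 3 lower (median -0.65 (-1.87 with members at the floor set to their bound)), and Cd79b, a signalling chain of the B cell receptor, was read 32.9, 21 and 23.8 in WT and 3.14, 1.94 and 0 in dKO.

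Genes that every cell of this kind should express were read in all libraries. The summed level of the 12 genes checked, among them Ptprc, Spi1, Cd53 and Coro1a, ranged over 38438 to 44040.5 in WT and 50363 to 59198 in dKO. Of these, 6 (50%) were called higher, against 17.4% of all genes, and 0 lower by limma, also at an unadjusted p under 0.05, in edgeR and in DESeq2 (median 0.44). Most markers of other liver cells had no read. For hepatocytes 8 of 11 markers had no read in C2, and the summed level was 143 to 235 in WT and 85.5 to 107 in dKO. It came mostly from Afp, the fetal liver protein, read 119, 165 and 106 in WT and 79.5, 72.9 and 83.7 in dKO (log2 fold change -0.69 ± 0.25, adjusted p = 0.0425), and Trf, transferrin, read 62.7, 66 and 33 in WT and 16.7, 5.83 and 13.9 in dKO (log2 fold change -2.11 ± 0.40, adjusted p = 6.57e-04). Both were called lower, but the call of Afp was lost with a pseudocount of 0.1, with no filter on low reads, with quantile normalization, with the replicate block or without any 1 library other than WT library 3. For fibroblasts 6 of 9 had no read, with a summed level of 6.41 to 14.7 in WT and 90 to 107 in dKO. In dKO nearly all of it was Pdgfrb, a receptor of mesenchymal cells, read 3.98, 3.15 and 1.83 in WT and 88.9, 107 and 99.8 in dKO, higher in every dKO library (log2 fold change 4.68 ± 0.26, adjusted p = 1.72e-09). For endothelial cells 6 of 8 had no read, with a summed level of 27.9 to 69.2 in WT and 58.6 to 68.7 in dKO. The part of these markers in the results was not tested.

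Receptors for cytokines changed in both directions. Of 34 tested, 7 were called higher and 13 lower, with a median of -0.25. Il6st, the gp130 chain shared by the IL-6 family, was read 147, 117 and 102 in WT and 12.6, 9.72 and 10.7 in dKO. It fell by 11.1-fold, with no overlap (log2 fold change -3.35 ± 0.32, adjusted p = 7.96e-07), whereas Il6ra, the chain that binds IL-6, rose by 0.80 ± 0.15. Il18rap, a chain of the IL-18 receptor, was read 368, 556 and 588 in WT and 1719, 1463 and 1685 in dKO (log2 fold change 1.71 ± 0.15, adjusted p = 3.60e-07). Tgfbr2, the type II receptor for TGF-beta, was read 380.4, 396 and 437 in WT and 221, 151 and 165 in dKO (log2 fold change -1.19 ± 0.13, adjusted p = 2.99e-06). For the growth factor of the culture, Il3ra was read 379, 447 and 385 in WT and 278, 228 and 279 in dKO. All dKO libraries were below WT (log2 fold change -0.62 ± 0.16, adjusted p = 0.0068). Csf2rb, the common beta chain that signals with it, was read 4754 ± 514 in WT and 4048 ± 395 in dKO and did not pass the test (adjusted p = 0.0749), but did without WT library 1 (0.02) or dKO library 1 (0.0458).

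Of the signal transducers downstream of these receptors, 3 (12%) of 25 STAT pathway and SOCS feedback genes were called higher and 4 (16%) lower (median 0.05), against 17.4% and 20.1% of all genes. Stat4, the transducer of IL-12 signals, was read 103, 52.4 and 72.4 in WT and 2.09, 1.94 and 1.07 in dKO. It was all but absent from dKO, a ratio of 44.2-fold with a 95% counting interval of 18.7 to 138. Socs5 (1.14 ± 0.17), Socs1 (1.06 ± 0.20) and Jak2 (0.74 ± 0.10) rose. Feedback genes of the MAPK pathway numbered 1 higher and 5 lower of 17 tested (median -0.23), and 0 higher without WT library 2, dKO library 1 or dKO library 3. Dusp6, the phosphatase that switches off ERK, was read 1919, 2605 and 2264 in WT and 1030.5, 641 and 739 in dKO. It fell by 2.82-fold in dKO (log2 fold change -1.51 ± 0.20, adjusted p = 2.11e-05), and Etv4, an ETS factor induced by ERK, fell by 1.35 ± 0.29 on the log2 scale. Of 11 AP-1 factors, 2 were called higher, 1 without WT library 1, WT library 2 or dKO library 2, and 4 lower (median -0.52). Fosb was read 6.97, 11.5 and 27.5 in WT and 83.7, 158 and 82.6 in dKO, higher in every dKO library (log2 fold change 2.88 ± 0.80, adjusted p = 0.0101), and Maff 122, 173 and 174 in WT and 49.2, 60.3 and 66.5 in dKO, lower in every one (log2 fold change -1.39 ± 0.32, adjusted p = 0.00246).

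Innate sensing genes were lower more often than higher. Of 42 tested Toll-like receptor and NF-kB genes, 16 (38.1%) were called lower and 5 higher, with a median of -0.23 (-0.22 with members at the floor set to their bound). Tlr7, the sensor of single-stranded RNA, was read 49.8, 69.2 and 78.8 in WT and 13.6, 17.5 and 16.1 in dKO. It fell by 4.19-fold (log2 fold change -1.98 ± 0.19, adjusted p = 8.40e-07). Irak2, a kinase of the receptor complex, was read 354, 444 and 381 in WT and 145, 124 and 124 in dKO (log2 fold change -1.57 ± 0.17, adjusted p = 3.17e-06). Bcl3, a nuclear relative of the NF-kB inhibitors, fell by 1.49 ± 0.21, and Nfkbia, the inhibitor itself, fell by 0.84 ± 0.15. Cd180 was read 19.9, 11.5 and 19.2 in WT and 50.2, 49.6 and 50.4 in dKO and rose (log2 fold change 1.55 ± 0.22, adjusted p = 4.29e-05). Myd88 (adjusted p = 0.247) and Rela (adjusted p = 0.503) did not pass the test. Among 17 inflammasome and interleukin-1 genes, 2 were called higher and 6 lower (median -0.35 (-0.44 with members at the floor set to their bound)). Nlrc4, the sensor of flagellin, was read 347, 361 and 333 in WT and 126, 147 and 114 in dKO. Its genotypes did not overlap (log2 fold change -1.43 ± 0.10, adjusted p = 2.76e-08), and Aim2, the sensor of cytosolic DNA, rose by 0.71 ± 0.09.

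Chemokines were also more often lower than higher. Of 25 tested chemokines and receptors, 10 (40%) were called lower and 2 higher, with a median of -0.82 (-1.09 with members at the floor set to their bound), and 6 of the 25 held under 10 reads in every C2 library. Ccl9 was read 3637, 4358 and 3478 in WT and 182, 118 and 169 in dKO. It dropped in every dKO library, by 24.5-fold (log2 fold change -4.62 ± 0.15, adjusted p = 3.98e-12). Ccl6, a related CC chemokine, was read 3056, 6708 and 6334 in WT and 338, 48.6 and 150.2 in dKO. The dKO libraries were spread but all below WT (log2 fold change -5.21 ± 0.50, adjusted p = 9.04e-07). Ccl3 was read 1746, 2691 and 1231 in WT and 321, 271 and 388 in dKO (log2 fold change -2.47 ± 0.46, adjusted p = 5.77e-04) and Ccl4 380.4, 832 and 407 in WT and 61.7, 30.1 and 66.5 in dKO (log2 fold change -3.31 ± 0.57, adjusted p = 2.71e-04), both of which attract monocytes. C5ar1, the complement C5a receptor, fell by 1.91 ± 0.26, and Cxcr4, the receptor that holds progenitors in the marrow, rose by 0.45 ± 0.09.

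Surface receptors of phagocytes were divided evenly, with 11 of 33 Fc receptors, lectins and ITAM receptors called higher and 11 lower (median 0.02 (0.01 with members at the floor set to their bound)). The rises included Clec4a2, an inhibitory lectin, read 15.9, 57.7 and 79.7 in WT and 388, 399 and 364 in dKO (log2 fold change 3.16 ± 0.36, adjusted p = 5.86e-06), and Fcgr2b, the inhibitory IgG receptor, read 1244, 1194 and 1015 in WT and 2616, 2129.7 and 2494 in dKO (log2 fold change 1.07 ± 0.11, adjusted p = 2.16e-06). No libraries overlapped in either. The lectins Clec4d (-1.37 ± 0.19), Clec5a (-1.27 ± 0.13) and Clec4e (-1.26 ± 0.22) fell. Lilr4b (-2.44 ± 0.56) and Lilrb4a (-1.78 ± 0.44) also fell, but they are near-identical copies, and reads may have been split between them. Of 22 integrins and selectins, 7 were called higher and 6 lower (median 0.05). Itgb7, which pairs with Itga4, was read 7.97, 15.7 and 11.9 in WT and 335, 197 and 438 in dKO. It rose by 27.2-fold (log2 fold change 4.63 ± 0.51, adjusted p = 3.57e-06). Itga1, a collagen-binding chain, was read 68.7, 52.4 and 53.1 in WT and 1.05, 0.97 and 2.15 in dKO, a ratio of 42.4-fold with a 95% counting interval of 16.2 to 157 in the other direction. Of the phagocyte oxidase, 3 of 10 tested genes were called higher and 0 lower by limma (median 0.09; 0 lower at an unadjusted p under 0.05, and 1 each in edgeR, in DESeq2 and without WT library 1), among them Ncf4 (0.44 ± 0.07) and the proton channel Hvcn1 (1.16 ± 0.16).

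Interferon-stimulated genes were mostly not called in C2, with 3 of 38 tested higher and 3 lower (7.89% each way, median -0.24 (-0.25 with members at the floor set to their bound)), of which 11 held under 10 reads in every C2 library. Their summed level was 4615 to 4972 in WT and 4869 to 5442 in dKO. The count of higher genes fell to 1 when WT library 1, WT library 3, dKO library 1 or dKO library 3 was left out. Gbp3, an interferon-induced GTPase, was read 309, 192 and 233 in WT and 17.8, 9.72 and 12.9 in dKO. It was the member with the steepest fall (log2 fold change -4.10 ± 0.34, adjusted p = 2.13e-07), and Eif2ak2, the kinase PKR, rose by 0.66 ± 0.16. Of 19 genes of MHC class I presentation, 3 (15.8%) were called higher, 1 without WT library 2 or dKO library 3, and 5 (26.3%) lower. All tested genes had 17.4% and 20.1%, and the median of the list was 0.05. The falls were those of the Qa region genes H2-Q7, read 72.7, 179 and 179 in WT and 4.18, 2.92 and 3.22 in dKO, H2-Q4, read 91.6, 112 and 133 in WT and 1.05, 1.94 and 3.22 in dKO, and H2-Q6, read 18.9, 92.3 and 75.1 in WT and 0, 0.97 and 0 in dKO, together with the class I activator Nlrc5 and H2-M3, whose call was lost without WT library 1 (adjusted p = 0.0522), WT library 2 (0.0511) or dKO library 2 (0.101). All 3 Qa genes were present in every WT library and close to 0 in dKO, but they are near-identical copies, so how the reads fall among them is uncertain. The classical gene H2-D1 (adjusted p = 0.464) and B2m, the shared light chain (adjusted p = 0.37), did not pass the test. H2-K1, the other classical gene listed, was lower in every dKO library (log2 fold change -0.31). It passed the test only with the C2 groups fitted alone (adjusted p = 0.023, against 0.295). For class II presentation, 3 of 12 were called higher and 1 lower, the latter 3 without WT library 1 and 2 without WT library 2, with a median of -0.01 (0.39 with members at the floor set to their bound) whose sign changed to 0.24 with quantile normalization, 0.59 with only the C2 groups fitted, 0.06 in edgeR and 0.07 in DESeq2.

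Among the lists with at least 8 tested members, lysosome genes had the highest share called lower. Of 55, 33 (60%) were called lower against 20.1% of all genes, and 6 higher, with a median of -0.37. Most changes were small. Ctsd, cathepsin D, was read 6258, 8129 and 7849 in WT and 3824, 3443 and 3829 in dKO. It fell by 2-fold, with every dKO library below WT (adjusted p = 2.16e-06). Npc1, the exporter of cholesterol from lysosomes, was read 1149, 1220.4 and 1104 in WT and 602, 545 and 599 in dKO (log2 fold change -0.99 ± 0.08, adjusted p = 2.10e-07). Ctsb, cathepsin B, was read 3927, 4193 and 4429 in WT and 2523, 2577 and 2528 in dKO (log2 fold change -0.72 ± 0.06, adjusted p = 2.91e-07), and Atp6v1a, a subunit of the proton pump, 5608, 5580 and 5042 in WT and 3301, 3037 and 3191 in dKO (log2 fold change -0.77 ± 0.07, adjusted p = 5.71e-07). The libraries of each genotype were close together in all of these. Slc11a1, the metal transporter of phagosomes, fell by 2.07 ± 0.43. Man2b1, lysosomal mannosidase, was read 4054, 3756 and 4264 in WT and 7017, 6956 and 7529.7 in dKO and rose (log2 fold change 0.83 ± 0.07, adjusted p = 2.26e-07), as did Cd63 (0.68 ± 0.11).

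Genes of fatty acid synthesis and handling were called higher in 4 and lower in 11 of 34 cases (median -0.21). Plin2, which coats lipid droplets, was read 4804, 7433 and 5842 in WT and 1965, 1717 and 1934 in dKO. It fell by 3.22-fold (log2 fold change -1.67 ± 0.15, adjusted p = 4.30e-07). Me1, malic enzyme, was read 269, 545 and 344 in WT and 64.9, 55.4 and 63.3 in dKO (log2 fold change -2.58 ± 0.29, adjusted p = 3.87e-06), and Cpt1a, the carnitine transferase of mitochondrial import, 1426, 1419.7 and 1429 in WT and 939, 826 and 826 in dKO (log2 fold change -0.72 ± 0.11, adjusted p = 1.24e-04). Both were lower in every dKO library, while Elovl6, a fatty acid elongase, rose by 1.11 ± 0.25. No gene of cholesterol synthesis was called higher among 27 tested by limma, and 2 were called lower (median -0.12), with 2 higher at an unadjusted p under 0.05 and 0 in edgeR or DESeq2. Both genes that fell were sterol exporters, Abcg1 (-1.21 ± 0.27) and Abca1, read 3.98, 6.29 and 9.16 in WT and 0, 0.97 and 0 in dKO.

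Eicosanoid genes were called in both directions, with 5 of 19 higher and 5 lower and a median of -0.08 (-0.13 with members at the floor set to their bound) that was 0.12 with quantile normalization, 0.26 in edgeR and 0.27 in DESeq2. The genes called higher were those of the leukotriene branch and Pla2g4a, which frees the arachidonic acid they start from. Alox5, 5-lipoxygenase, was read 1095, 1933 and 1811 in WT and 3507, 2640.1 and 2939 in dKO (log2 fold change 0.94 ± 0.21, adjusted p = 0.00219), and Lta4h, which makes leukotriene B4, 11152, 12374 and 10916 in WT and 18683, 20123 and 16840 in dKO (log2 fold change 0.69 ± 0.09, adjusted p = 2.51e-05). With Alox5ap (0.33 ± 0.07), Pla2g4a (0.38 ± 0.07) and Ltb4r1, every one of them was higher in all dKO libraries. Hpgd, the enzyme that inactivates prostaglandins, was read 15067, 10236 and 11716 in WT and 3727, 3573 and 4282 in dKO. It was 3.2-fold lower (log2 fold change -1.66 ± 0.25, adjusted p = 6.73e-05), and the thromboxane synthase Tbxas1 fell (-1.26 ± 0.15) and the prostacyclin receptor Ptgir fell by 2.14 ± 0.41.

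Of 24 tested genes of iron and haem handling, 12 (50%) were called lower and 3 higher (median -0.28). Hmox1, haem oxygenase, was read 595, 1190 and 637 in WT and 152, 65.1 and 183 in dKO. It fell by 6.05-fold (log2 fold change -2.64 ± 0.32, adjusted p = 1.02e-05). Blvrb, the biliverdin reductase that follows it, was read 341, 385 and 292 in WT and 141, 104 and 113 in dKO (log2 fold change -1.50 ± 0.14, adjusted p = 5.52e-07). The ferritin chains Fth1 (-0.81 ± 0.10) and Ftl1 (-0.81 ± 0.13) fell by the same amount. Flvcr1, a haem exporter, was read 228, 229 and 215 in WT and 674, 581 and 659.7 in dKO and rose, with no overlap (log2 fold change 1.50 ± 0.11, adjusted p = 5.67e-08).

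For glycolysis and the pentose phosphate pathway, 3 of 30 were called higher and 8 lower (median -0.44). The count of lower genes was 4 without WT library 2 or dKO library 2 and 5 without WT library 3 or dKO library 1, and that of higher genes was 1 without WT library 2, WT library 3 or dKO library 3. Slc2a3, a glucose transporter, was read 98.6, 136 and 192 in WT and 974, 462 and 901 in dKO. It rose by 5.47-fold (log2 fold change 2.42 ± 0.30, adjusted p = 1.06e-05), whereas G6pdx, the entry enzyme of the pentose phosphate pathway, was read 5002, 5038 and 4421 in WT and 3154, 3406 and 2887 in dKO and fell (log2 fold change -0.61 ± 0.08, adjusted p = 1.80e-05). Ldha was read 31231 ± 5288 in WT and 23226 ± 6399 in dKO (adjusted p = 0.221). Of 68 genes of the TCA cycle and oxidative phosphorylation, 13 (19.1%) were called higher and 15 (22.1%) lower, 8 without WT library 1. These shares were near the 17.4% and 20.1% of all genes, and the median was -0.05. Ogdh, of the cycle, fell by 0.59 ± 0.09.

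Of 39 tested genes of the ATF4 and amino acid stress response, 4 (10.3%) were called higher, 2 without WT library 2, and 10 (25.6%) lower. All tested genes had 17.4% and 20.1%, and the median of the list was -0.22. Cth, which makes cysteine, was read 817, 418 and 399 in WT and 109.8, 52.5 and 124 in dKO. The dKO libraries were all below WT, of which library 1 was the highest (log2 fold change -2.51 ± 0.47, adjusted p = 5.78e-04). Psph, the last step of serine synthesis, was read 1141, 858 and 815 in WT and 441, 410.2 and 469 in dKO (log2 fold change -1.08 ± 0.13, adjusted p = 8.14e-06). Atf4 itself was read 6698 ± 713 in WT and 5619 ± 167 in dKO (adjusted p = 0.196, or 0.0417 with only the C2 groups fitted). Endoplasmic reticulum genes were lower in 13 (41.9%) and higher in 2 of 31 (median -0.21), the latter 1 without WT library 1, WT library 2 or dKO library 3. Sel1l, of the degradation pathway of misfolded proteins, was read 4627, 4402 and 4527 in WT and 2913, 2746 and 2857 in dKO, with no overlap (log2 fold change -0.67 ± 0.06, adjusted p = 4.55e-07), and Hspa5, the chaperone BiP, fell by 0.43 ± 0.09 and Xbp1, the factor spliced in its stress response, fell by 0.46 ± 0.08.

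Shares called higher of 64.3%, 58.8%, 54.5% and 50% were seen in the eosinophil, stem and progenitor, insulin-like growth factor and check lists. Ribosome biogenesis came next among the lists with at least 8 tested members. Of 44 tested, 21 (47.7%) were called higher, against 17.4% of all genes, and 0 lower by limma (0 lower also at an unadjusted p under 0.05, in edgeR and in DESeq2, but 1 without WT library 2), with a median of 0.23. Wdr12, of the complex that processes the large subunit, was read 1459, 1112 and 1275 in WT and 2509.8, 3032 and 2911 in dKO. Each dKO library held about the same excess, and the means differed by 2.2-fold (log2 fold change 1.14 ± 0.11, adjusted p = 9.03e-07). Utp20, of the small subunit processome, was read 1334, 1029.6 and 1161 in WT and 2298, 3139.7 and 2363 in dKO (log2 fold change 1.14 ± 0.15, adjusted p = 2.61e-05). Nop58, a core protein of box C/D particles, was read 3282, 3074 and 3236 in WT and 5922, 5903 and 5943 in dKO (log2 fold change 0.89 ± 0.08, adjusted p = 4.93e-07), and the helicase Ddx21 rose by 0.84 ± 0.07 and nucleolin, Ncl, by 0.67 ± 0.11. In each of these 5 genes the genotypes did not overlap.

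Genes of DNA replication and mitosis were called higher in 3 and lower in 12 of 46 cases (median -0.09). The helicase subunits Mcm6 (0.73 ± 0.08) and Mcm3 (0.48 ± 0.09) rose. Rrm2, the small subunit of ribonucleotide reductase, was read 6403, 6559 and 6326 in WT and 3949, 4316 and 3994 in dKO and fell (log2 fold change -0.65 ± 0.07, adjusted p = 2.43e-06), and the falls among mitotic genes such as Ccnb1 (-0.30 ± 0.08) and Cenpa (-0.46 ± 0.08) were smaller. Of 16 CDK inhibitors, D cyclins and related genes, 6 were called higher and 2 lower (median 0.09). Cdkn2a, the locus of p16 and p19ARF, was read 41.8, 99.6 and 106 in WT and 444, 373 and 501 in dKO. It rose by 5.32-fold (log2 fold change 2.50 ± 0.27, adjusted p = 3.48e-06). Cdk4 was read 3173, 2959.9 and 3062 in WT and 4587, 5543 and 5389 in dKO (log2 fold change 0.75 ± 0.09, adjusted p = 9.05e-06), also higher in all dKO libraries. Cdkn1c, the inhibitor p57, was read 15.9, 21 and 15.6 in WT and 2.09, 1.94 and 7.51 in dKO, lower in all (log2 fold change -2.11 ± 0.40, adjusted p = 6.60e-04).

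In the BCL2 family and among death genes, 9 of 27 were called higher and 5 lower, the latter 1 without WT library 1 and 3 without WT library 2, WT library 3 or dKO library 3 (median 0.07 (0.04 with members at the floor set to their bound)). Bcl2, the survival factor, was read 124, 147 and 114 in WT and 816, 676 and 795 in dKO. It rose by 5.94-fold, without overlap (log2 fold change 2.56 ± 0.17, adjusted p = 1.96e-08). Mcl1 (adjusted p = 0.728) and Bcl2l1 (adjusted p = 0.365) did not pass the test, and reads of the near-identical copies of Bcl2a1 cannot be assigned with certainty. Of 28 p53 targets and regulators, 7 were called higher and 4 lower (median 0.17 (0.16 with members at the floor set to their bound)). Mdm4, an inhibitor of p53, was read 1928, 1905 and 1802 in WT and 4284, 3559.6 and 4033 in dKO (log2 fold change 1.07 ± 0.10, adjusted p = 4.90e-07), and Trp53 rose by 0.49 ± 0.10, while Cdkn1a, the target that encodes p21, was read 1982 ± 473 in WT and 1479 ± 83.2 in dKO and did not pass the test (adjusted p = 0.158, or 0.0362 without WT library 1).

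The insulin-like growth factor axis was listed with the Lin28 pathway that controls it in fetal blood cells. Of 11 tested, 6 were called higher and 3 lower, with a median of 0.29 (0.44 with members at the floor set to their bound) that was -0.09 without a filter on low reads. Hmga2, a chromatin protein of fetal stem cells, was read 0, 0 and 0 in WT and 249, 179 and 269 in dKO. WT held none, and dKO was at least 73.9-fold higher. Lin28b, which blocks the let-7 microRNAs, was read 89.6, 60.8 and 59.5 in WT and 482, 436 and 511 in dKO. It rose by 6.81-fold (log2 fold change 2.77 ± 0.26, adjusted p = 6.33e-07). Igfbp4, a secreted binding protein, was read 1162, 615 and 862 in WT and 4889, 4689 and 5449 in dKO (log2 fold change 2.55 ± 0.17, adjusted p = 1.69e-08), while the receptor Igf1r was read 2497, 3194 and 2654 in WT and 1841, 1567 and 1630.4 in dKO and fell (log2 fold change -0.72 ± 0.11, adjusted p = 7.26e-05). None of these genes overlapped between genotypes. Igf2 had no read in C2.

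The dKO effect in C2 was then set against that in C1, another clone with 3 WT and 3 dKO libraries, by testing the difference of the log2 fold changes (C2 minus C1) in the same fit. Of the genes tested, 3720 (29.4%) differed, 1910 with a more positive effect in C2 and 1810 with a more negative one. Cd34, Flt3, Cpa3 and Kit were called higher in both clones. For Kit the difference between clones was 0.96 ± 0.16 (adjusted p = 3.75e-04) and for Cebpe -0.28 ± 0.14 (adjusted p = 0.167).

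**Figure D4:**
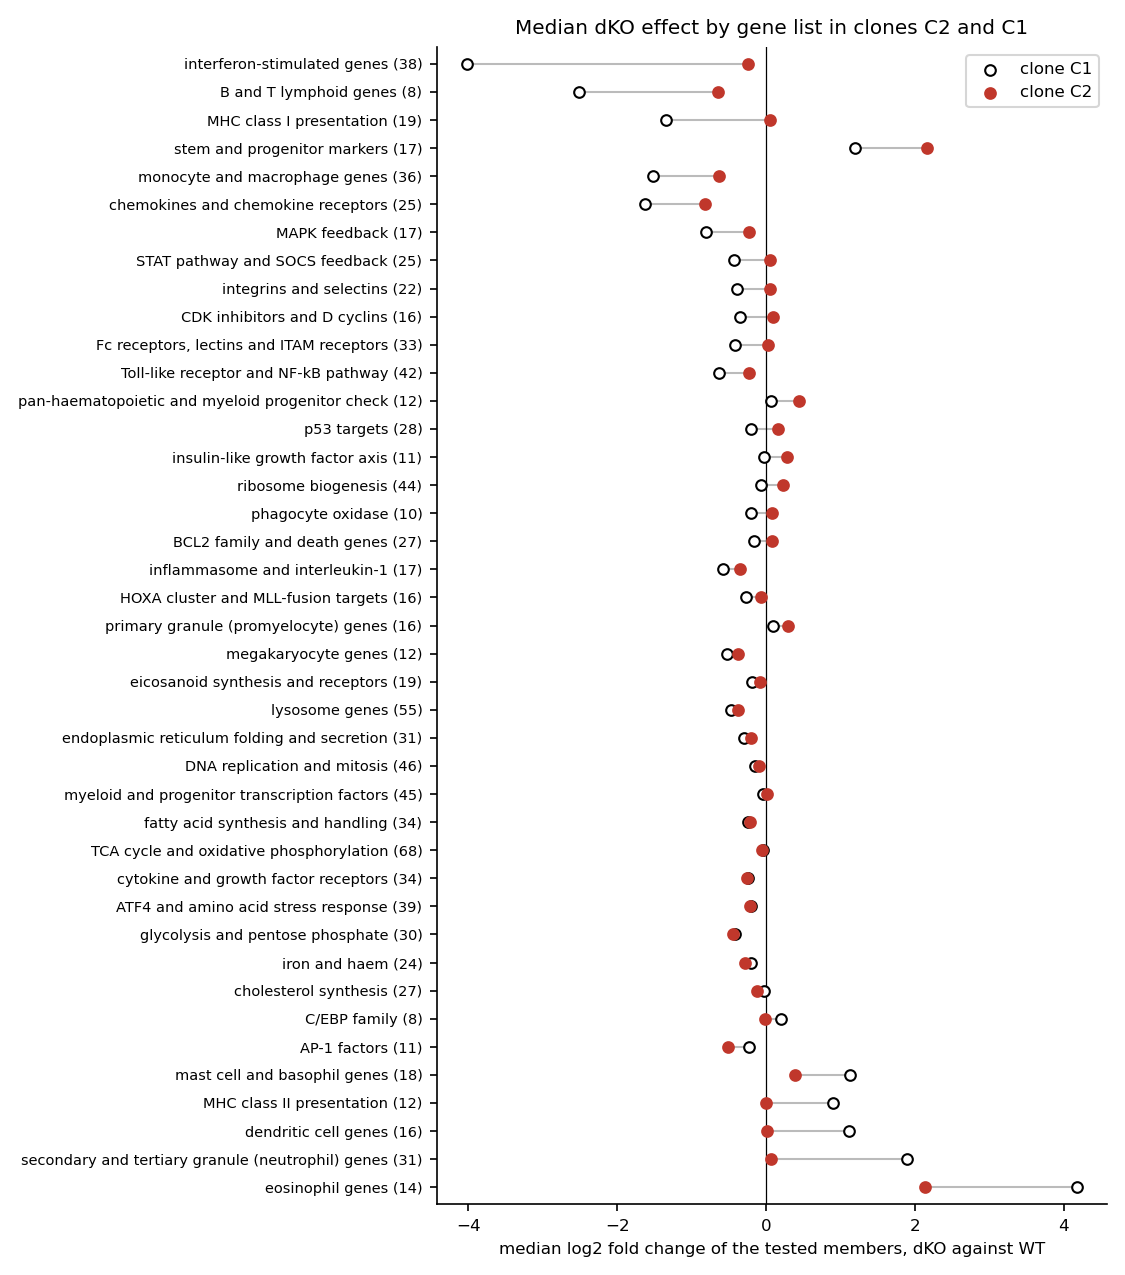
Median log2 fold change of dKO over WT (horizontal axis) of the tested members of each gene list in C2 (red) and C1 (open), with the number tested in brackets, for lists with at least 8 tested members. The interferon-stimulated genes lie at -0.24 in C2 and -4.01 in C1, and the eosinophil genes at 2.13 in C2 and 4.17 in C1.

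The lists described next were picked after the values were seen. Of 38 interferon-stimulated genes, 35 had a more positive effect in C2 and 0 a more negative one by limma (0 also at an unadjusted p under 0.05, in edgeR and in DESeq2), and their median was -4.01 in C1. Here too, 11 of the 38 were tested only through libraries of C1. Isg15, a ubiquitin-like protein induced by interferon, was read 11.3 ± 3.85 in WT and 8.96 ± 1.56 in dKO in C2 and 1097 ± 933 in WT and 6.56 ± 1.89 in dKO in C1. The C1 WT libraries were thus high and uneven, the C2 libraries low in both genotypes, and the effects differed by 6.35 ± 0.87 (adjusted p = 5.54e-05). Genes of MHC class I presentation followed, with 14 of 19 more positive in C2 and a median of -1.34 in C1. Of 14 eosinophil genes, 11 had a more negative effect in C2, a count that the filter favours, since 6 of the 14 were tested only through their reads in C1. Prg2 was read 4.14 ± 2.8 in WT and 138 ± 29.7 in dKO in C2 and 0 ± 0 in WT and 8347 ± 2512 in dKO in C1, a difference of -8.11 ± 0.54 (adjusted p = 4.00e-08). Of 31 secondary and tertiary granule genes, 19 had a more negative effect in C2, and the median of the list was 1.90 in C1. Ltf, lactoferrin, was read 551 ± 283 in WT and 929 ± 89.1 in dKO in C2 and 38 ± 7.73 in WT and 3629 ± 325 in dKO in C1 (-5.63 ± 0.44 (adjusted p = 2.62e-07)), and its rise in C2 (log2 fold change 0.93) was no longer called without WT library 1 (0.38), dKO library 1 (0.88) or dKO library 2 (0.90), with only the C2 groups fitted or in DESeq2. Cd177 fell in C2 but was read 371 ± 78.6 in WT and 2600.2 ± 242 in dKO in C1, a difference of -5.15 ± 0.34 (adjusted p = 4.21e-08). Of 44 ribosome biogenesis genes, 20 had a more positive effect in C2, with a median of -0.07 in C1. Monocyte and macrophage genes had a median of -1.52 in C1, with 12 more positive and 6 more negative in C2.

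**Figure D5:**
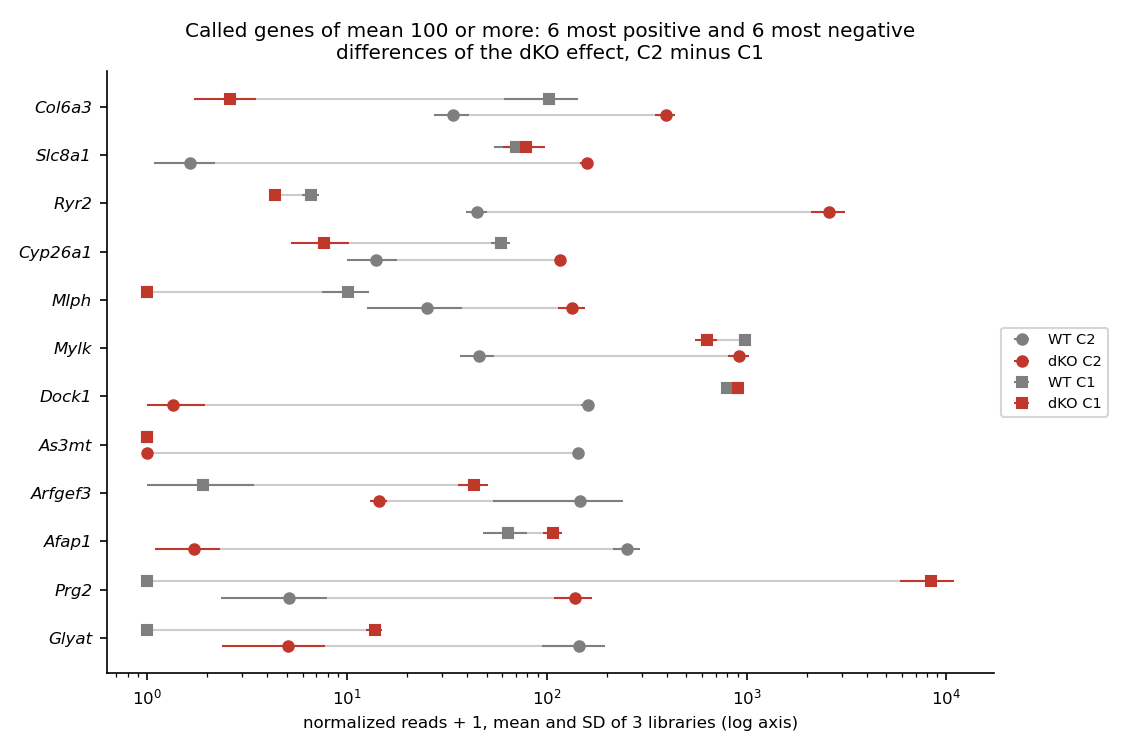
Mean and SD of normalized reads + 1 (horizontal log axis) over 3 libraries each of WT (grey) and dKO (red) in C2 (circles) and C1 (squares) for 12 genes, the 6 with the most positive and the 6 with the most negative difference in dKO effect between the clones among genes called in C2 with a mean of at least 100 reads in a C2 group. Ryr2 and Col6a3 are higher in dKO than in WT in C2 and not in C1, Prg2 rises farther in C1, and for As3mt the C1 WT square lies under the C1 dKO square, both at 0 reads.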

How the data were processed

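RNA sequencing of MLL-ENL transformed mouse fetal liver cells was analysed for 15 libraries in 1 table, of which 6 are the C2 libraries. Per the submitters' processing notes, the read pairs of the stranded poly(A) libraries were placed on mm10 by STAR 2.5.3a and counted per gene by HTSeq 0.10.0, and the authors normalized the counts with DESeq2 1.26.0. The gene annotation and strand setting are not given in the sources used here, so overlapping or antisense genes may share reads. The deposited values are a signal in normalized reads, counts that the authors divided by a size factor for each library. Whole reads were recovered from their steps for 100.0% of values within a tolerance of 0.1 read. In WT library 1 of C2 the step was close to 1. The 3 columns that matched no label were not used. The 5 rows that name no gene, which took 22.9% to 24.7% of the reads of each C2 library, were left out of tests and depths. Genes without a symbol in the table, 26111, were named by identifier from GENCODE vM21 where possible (26006).

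A gene entered the test when 3 or more of the 15 libraries held 10 normalized reads or more. Genes were tested with limma 3.58.1 (R 4.3.3) on log2(normalized reads + 1), with 1 mean per genotype and clone and 1 spread over all 15 libraries. Fold changes of low genes are understated on this scale. Calls use a Benjamini-Hochberg adjusted p under 0.05 over all tested genes. The difference between clones is the interaction contrast of the same fit. A group with no read was set to 3 reads per library for a bound, and ratios against groups with at most 3 reads in each library carry a 95% counting interval. Intervals and bounds cover counting error only.

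The gene lists and the genes named were chosen with earlier results of these data known. Genes were named by rule. It took every C/EBP family member, and up to 4 rises and 4 falls of each list among called genes without overlap. Over all genes, with a mean of at least 100 reads, it took the 15 largest rises and 15 largest falls. It also took the 6 genes at each end of the difference between clones, and defining list members that were not called. A further 35 called list members, such as Elane, Sox4, Angpt1, Spp1, Ctsb and Cpt1a, were named after their values were seen. No list was tested.

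On counts simulated for 12365 genes with 200 changed, the C2 comparison recovered 67.5% of the changed genes (40.3% at 1.5-fold, 68.7% at 2-fold and 93.9% at 4-fold) and called 0.04% of the others, and the difference between clones recovered 51%. The share of changed genes was far below the 37.6% called in the data, and the adjusted p depends on it, so these rates need not hold there. Alternatives were edgeR 4.0.16, DESeq2 1.42.0 and the settings in the closing section. Tables and plots used Python 3.11.15, pandas 2.3.3, numpy 2.4.6 and matplotlib 3.10.9. Replicates of the C2 groups correlated at 0.987 to 0.992 on the log2 scale, and none differed by less than counting noise.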

Additional observations from a re-analysis of the deposited data

Results flagged for a closer look

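The dKO effect differed between C2 and C1 by the limma test of the difference itself for the 12 genes below, the 6 with the most positive and the 6 with the most negative difference among genes called in C2 with a mean of at least 100 normalized reads in a C2 group. Values are the log2 fold change in C2 minus that in C1. It was 8.83 for Col6a3, 6.50 for Slc8a1, 6.43 for Ryr2, 6.09 for Cyp26a1, 5.83 for Mlph and 4.97 for Mylk. It was -8.74 for Glyat, -8.11 for Prg2, -8.05 for Afap1, -7.85 for Arfgef3, -7.17 for As3mt and -7.15 for Dock1. Mylk, the myosin light chain kinase, was read 44.8 ± 8.93 in WT and 917 ± 110 in dKO in C2 and 977 ± 66.8 in WT and 631 ± 81.5 in dKO in C1, so that WT of C2 was the low group. Dock1, an activator of Rac, was read 159.5 ± 12.3 in WT and 0.35 ± 0.606 in dKO in C2 and 799 ± 7 in WT and 904 ± 61.2 in dKO in C1, so that dKO of C2 was the low group. Col6a3, a collagen chain, was read 32.9 ± 6.69 in WT and 394 ± 45.4 in dKO in C2 and 101 ± 41.4 in WT and 1.61 ± 0.902 in dKO in C1, higher in dKO in the first and lower in the second.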

How the results depend on the processing

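The 2211 genes called higher and 2549 called lower became 526 and 915 when a log2 change of 1 or more in size was also required. The 1910 more positive and 1810 more negative effects than in C1 became 739 and 922. The other alternatives kept these counts within 1.5 times, from 2069 to 2416 higher (no filter on low reads, quantile normalization) and from 2289 to 2759 lower (quantile normalization, no filter), with edgeR calling 2278 and 2470 and DESeq2 2251 and 2381. With the replicate block 2150 were higher and 2469 lower, and 1866 effects were more positive than in C1. Samples with the same number correlated at -0.169, -0.174 and 0.057 in their deviations from the group means, so the numbers do not pair them, and the block changed no summary count by over 1.5 times. Leaving out 1 library gave 1805 to 1978 higher and 1914 to 2329 lower, and 1597 to 1890 more positive and 1423 to 1797 more negative effects than in C1. Of 338 named genes tested, 306 kept their side of the threshold and their direction under 8 alternatives, and 286 also without each library in turn. Among them 24 lost their call under an alternative and 28 without a library, and no called gene was reversed. Some genes that were not called changed sign, such as Camp, from 0.18 to -0.20 without WT library 1. Of 45 list medians, 10 changed sign or became 0 under an alternative. Without a filter, when members with few or no reads enter, the medians of the mast cell (0.39 with it), lymphoid, dendritic cell, fibroblast, endothelial, class II and transcription factor lists became 0 and that of the insulin-like growth factor list fell from 0.29 to -0.09. The C/EBP family median became 0.04 with quantile normalization. Among counts of list members not given above, 3 members of the BCL2 family list were lower with quantile normalization. With 3 libraries per genotype from 1 clone, a missed threshold does not show that levels are alike, and changes of 1.5-fold were often missed on simulated data.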

Other observations

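On the second principal component of the C2 libraries, which carried 8% of the variance, WT library 1 (21.89) and dKO library 2 (26.52) lay on one side and the other libraries between -20.23 and -5.59 on the other. The deviations of these 2 libraries from their group means correlated at 0.207 across genes, which are not independent replicates. The summed reads of the glycolysis and pentose phosphate list were 270100, 353500 and 316800 in WT and 260000, 195600 and 266200 in dKO, lowest within each genotype in the same 2 libraries.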
